A study of Mus musculus with 9 samples.

Results

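The 10 genes described here are those of cytosolic fatty acid synthesis and of the lengthening and desaturation of its products: Fasn, Acaca, Acss2, Elovl1, Elovl5, Elovl6, Scd1, Scd2, Fads1 and Fads2. They were taken by gene symbol, whatever their values, from a table of RNA sequencing counts of 55536 mouse genes; each matched 1 Ensembl gene, and all 10 were among the 15720 genes tested. The cells were primary mouse myoblasts, the dividing precursors of muscle fibres, from mice with floxed Uqcrfs1, the gene of the Rieske iron-sulphur subunit of mitochondrial complex III, which Cre recombinase deletes. Every library came from floxed cells that had received an adenovirus. The floxed vehicle group (labelled uqcrfs1 +/+ (floxed), 3 libraries) received a GFP virus and DMSO, the knockout vehicle group (uqcrfs1 -/-, 3 libraries) a Cre virus and DMSO, and the knockout oxybutynin group (uqcrfs1 -/-, 3 libraries) a Cre virus and 7.5 µM oxybutynin, a drug that blocks muscarinic receptors for acetylcholine. Cells were seeded 72 h after the virus, and drug or DMSO was given from 24 h after seeding for 5 days. Deletion therefore goes together with Cre virus, no floxed cells received the drug, and the sources used here name neither the promoter driving Cre nor the age of the animals. The labels do not say whether replicates came from separate cultures or animals; the p-values then speak only to how far these libraries spread, and that spread may be technical.

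Fatty acids are built in the cytosol from acetyl-CoA, which ATP citrate lyase makes from exported citrate and Acss2 makes from acetate. Acetyl-CoA carboxylase (Acaca) turns it into malonyl-CoA, and fatty acid synthase (Fasn) joins these units into palmitate. In the endoplasmic reticulum, elongases of the Elovl family lengthen the chains, the stearoyl-CoA desaturases Scd1 and Scd2 place the first double bond in saturated chains, and Fads2 and Fads1 act in turn on dietary polyunsaturated chains. Many of these genes are known targets of the transcription factors SREBP and LXR, and in dividing cells their products go largely into membranes.

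The libraries held 19604971 to 26226949 counts, of which the 10 genes took 0.135% to 0.152%; a single gene had between 135 counts (Acss2, floxed vehicle replicate 1) and 15394 counts (Fasn, knockout oxybutynin replicate 1). Uqcrfs1 was at 76.5 to 83.6 counts-per-million (CPM) in floxed and 2.07 to 2.90 CPM in knockout libraries, as all 9 labels say. Several properties of the libraries moved with the groups. Mitochondrially encoded transcripts took 3.07% to 3.14% of counts in floxed vehicle, 1.95% to 2.71% in knockout vehicle and 1.58% to 2.12% in knockout oxybutynin libraries. The log2 fold change of the 12976 tested protein-coding genes rose with their exonic GC content, with a Spearman correlation across genes of 0.556 for knockout vehicle against floxed vehicle and 0.701 for oxybutynin against vehicle. Genes are not independent replicates, and these correlations are descriptions. The knockout effects on the 10 genes are therefore also given after a trend on GC content and exon length was removed from every library without regard to group. For other genes this value is given where it ends or makes a call, turns the direction or moves the log2 value by over 1.5 times. Knockout vehicle replicate 2 stood apart from the other 2 of its group, at 17.3 on the first principal component of all tested genes where they were at 37.7 and 43.3. Knockout vehicle replicate 3 correlated on average more closely with the oxybutynin libraries (r = 0.99268) than with its own group (r = 0.98796). Replicate 1 of that group did so too, by less (r = 0.98843 and 0.98734). Replicate 2 did not (r = 0.98358 with the oxybutynin libraries and 0.98555 with its own group). The results that rest on knockout vehicle replicates 2 and 3 are given with and without them.

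Summed myoblast markers (7 of 7 tested) were at 3853 to 3961 CPM in floxed vehicle, 3949 to 4818 in knockout vehicle and 4715 to 4911 in knockout oxybutynin libraries. In knockout vehicle against floxed vehicle the list was mixed: 3 were higher (Des by 0.43, Vcam1 by 0.33 and Pax7 by 0.26 on the log2 scale), and 2 were lower, Cdh15 (-0.88, edgeR adjusted p = 9.23e-07) and Myf5 (-0.39). Myod1 was at 0.22 and not called. With the GC and length trend removed, Myf5 was called higher (0.38) and Myod1 lower (-0.25), Cdh15 was at -1.40, and Pax7 and Des were not called. Vcam1 was then at 1.22, and Chrna1, not called before (0.08), was called higher (0.21). Summed markers of differentiated muscle (7 of 7 tested) were at 8206 to 9557 CPM in floxed vehicle, 2986 to 3736 in knockout vehicle and 2832 to 3470 in knockout oxybutynin libraries. Most of that sum was Ttn, at a mean of 7677 CPM in floxed and 2449 in knockout vehicle libraries. Of the 7, 5 were lower in knockout vehicle and 2 were higher, Ckm (1.30) and Actn2 (0.77), with the same split after the trend was removed. Its removal moved Ttn from -1.65 to -0.64, Actn2 to 0.42, Myog from -0.55 to -0.91 and Mymk from -0.48 to -0.83. Adipocytes, a cell type rich in these enzymes, would show Adipoq, Plin1, Cidec, Lep and Retn: Lep and Retn were at 0 in all 9 libraries, and the other 3 had 0 to 4 counts a library. The summed adipocyte list (3 of 8 tested) was nevertheless at 8.84 to 9.56 CPM in floxed vehicle, 15.6 to 18.3 in knockout vehicle and 16.9 to 19.6 in knockout oxybutynin libraries, most of it Cebpa. All 3 tested were higher in knockout vehicle: Fabp4 by 1.80 from 0.212 CPM (edgeR adjusted p = 0.0074), Cebpa by 0.93 (7.33e-06) and Pparg by 0.52 (0.0446). With the GC and length trend removed Cebpa was at 0.45, and Pparg was not called (0.46, edgeR adjusted p = 0.0666). Leukocyte markers (3 of 6 tested, 2 higher in knockout vehicle) summed to 8.89 to 9.79 CPM in floxed vehicle, 15.02 to 17.89 in knockout vehicle and 17.2 to 19.8 in knockout oxybutynin libraries, with Cd68 at 1.19 (adjusted p = 4.16e-07). The list was mixed: Lyz2 was also higher (0.49), but Adgre1 was at -0.48 and not called. Cd68 alone had a mean of 4.74 CPM in floxed and 10.8 in knockout vehicle libraries. Of the untested markers, Ptprc was at means of 0.193 and 0.0270 CPM in these groups, Cd52 at 0.0313 and 0.0155, and Tyrobp at 0.140 and 0.261. Fibroblast markers (3 of 6 tested, 2 higher) summed to 5.02 to 6.23, 8.62 to 9.55 and 7.71 to 9.21 CPM in the same order, with Ly6a at 1.05 (adjusted p = 0.000307) and Lum at 0 in every library. The call of the other higher one, Col15a1 (0.86), was lost with the GC and length trend removed (0.47, edgeR adjusted p = 0.228). Markers of endothelium (3 of 5 tested, at most 3.45 CPM) and of Schwann cells (2 of 5 tested, at most 5.60 CPM) held no called gene. Fewer cells of a type and less RNA per cell cannot be told apart in bulk libraries, and the part of these marker lists in the results below was not tested.

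Levels can be compared between genes only per length, and on the scale of CPM per kilobase of exon the 10 genes of floxed vehicle cells spanned 2 orders of magnitude. Scd2 was the highest at 67.2 ± 0.739 (SD, n = 3), followed by Fasn at 51.9 ± 0.378, Fads1 at 24.6 ± 0.342, Fads2 at 23.7 ± 0.254 and Elovl5 at 22.5 ± 0.538. Below them came Elovl1 at 14.8 ± 0.670, Elovl6 at 10.9 ± 0.310, Acaca at 7.39 ± 0.280, Scd1 at 6.88 ± 0.125 and Acss2 at 0.635 ± 0.0401. No 2 neighbours in this order overlapped in the floxed vehicle libraries. In knockout vehicle cells the order was Scd2 (50.1 to 56.2), Fasn (42.0 to 53.9), Fads1 (32.1 to 33.4), Elovl5 (23.2 to 29.8), Fads2 (21.5 to 24.4), Elovl1 (19.7 to 23.5), Scd1 (7.61 to 9.98), Acaca (6.15 to 7.81), Elovl6 (2.01 to 2.23) and Acss2 (1.85 to 2.19). There Scd2 and Fasn overlapped, as did Elovl5, Fads2 and Elovl1 in turn, Scd1 and Acaca, and Elovl6 and Acss2. Elovl6, above Acaca and Scd1 in floxed vehicle cells, thus lay at the level of Acss2 in knockout vehicle cells. With oxybutynin Fasn (50.6 to 57.4) and Scd2 (46.0 to 51.7) again overlapped, and so did Acss2 (1.49 to 1.82) and Elovl6 (1.39 to 1.75).

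**Figure D1:**
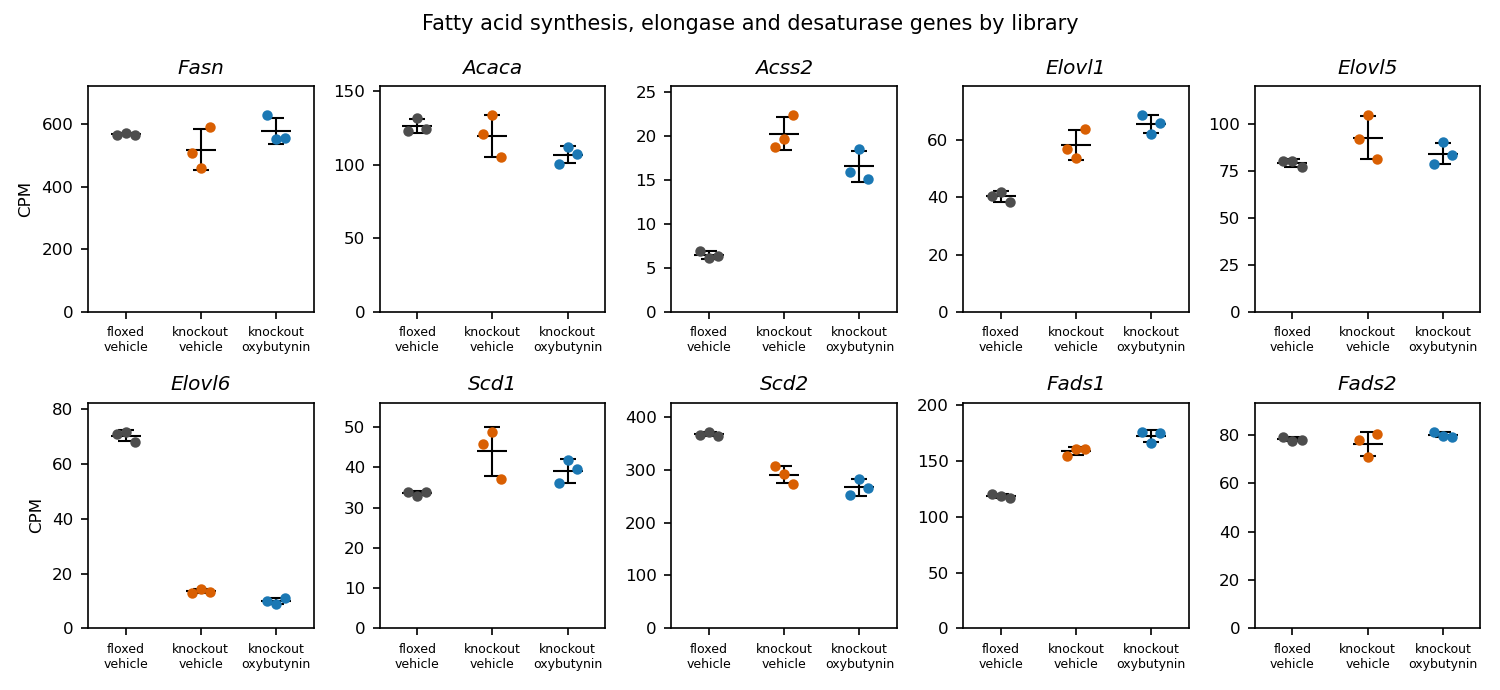
CPM of the 10 genes in each of the 9 libraries (points), with the mean and SD of each group of 3 (bars); each panel has its own linear axis from 0. Elovl6 is at 68.0 to 71.7 CPM in floxed vehicle and 8.97 to 14.4 CPM in all knockout libraries, and Acss2 at 6.10 to 6.90 and 15.1 to 22.3 CPM.

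The first comparison, knockout vehicle against floxed vehicle, asks how the genes differ after deletion of Uqcrfs1. Elovl6 fell 5.17-fold and Acss2 rose 3.14-fold, while the other 8 differed by less than 1.5-fold. Elovl1, Elovl5, Scd1 and Fads1 were higher, Scd2 was lower, and Fasn, Acaca and Fads2 did not pass the test. In all, 5 of the 10 genes rose and 2 fell (edgeR quasi-likelihood test, adjusted p under 0.05), where 29.9% of all genes tested rose and 33.4% fell. Together 7 of the 10 were called, beside 63.3% of all genes, and the groups did not overlap for 7 of the 10, beside 66.7% of all genes. After the GC and length trend was removed, 5 of the 10 rose and 4 fell, against 28.0% and 30.3% of all genes. The median log2 fold change of the 10 was 0.10, beside -0.01 over all genes tested.

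**Figure D2:**
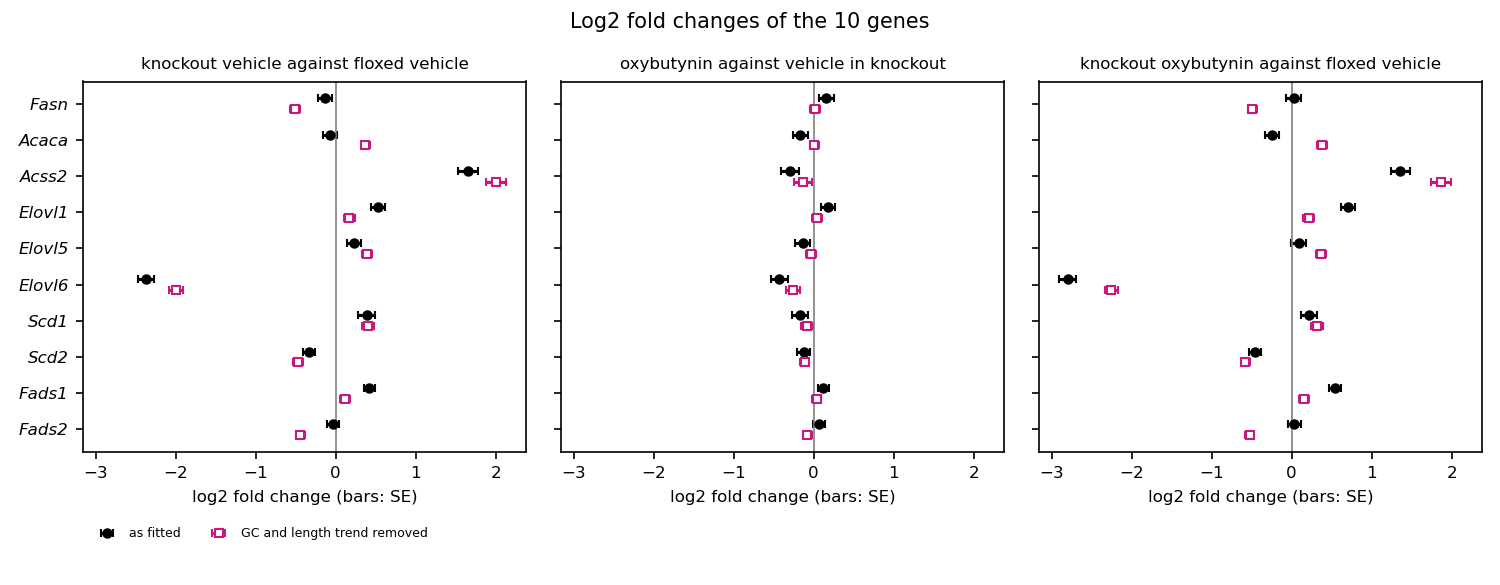
Log2 fold changes (points) with their SE (bars) of the 10 genes in the 3 comparisons, as fitted (filled circles) and after removal of the GC and length trend (open squares). Elovl6 (-2.37 and -2.00) and Acss2 (1.65 and 2.00) lie far from 0 in the knockout vehicle comparison on both scales, whereas Acaca changes side (-0.08 and 0.37).

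The sequence before the start is shown for Elovl6 and Acss2, the 2 genes with the largest changes, and for the synthase Fasn, which was not called, since lipogenic factors are known to act through short elements in such stretches. RefSeq windows (GRCm38.p6, 250 bases before to 50 after the start) were found for 7 of the 10 genes; Scd1, Scd2 and Fads1 had none. The bases printed, 5′ to 3′ on the gene's strand, are those of the window before the gene's first annotated base; capitals mark the motifs that were searched.
Elovl6: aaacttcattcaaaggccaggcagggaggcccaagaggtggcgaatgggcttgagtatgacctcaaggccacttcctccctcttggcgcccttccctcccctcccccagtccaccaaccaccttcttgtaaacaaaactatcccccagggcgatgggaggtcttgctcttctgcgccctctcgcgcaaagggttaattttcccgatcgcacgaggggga
Acss2: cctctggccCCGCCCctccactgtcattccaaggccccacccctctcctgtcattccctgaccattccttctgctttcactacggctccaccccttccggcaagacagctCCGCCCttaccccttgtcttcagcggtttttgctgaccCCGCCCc
Fasn: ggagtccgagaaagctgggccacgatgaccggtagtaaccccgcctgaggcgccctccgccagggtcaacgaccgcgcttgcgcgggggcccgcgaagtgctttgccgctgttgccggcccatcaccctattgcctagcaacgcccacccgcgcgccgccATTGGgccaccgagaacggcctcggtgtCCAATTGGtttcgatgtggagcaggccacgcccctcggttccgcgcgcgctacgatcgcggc
The stretches lie at chr3:129532136-129532354 (plus strand, Elovl6), chr2:155517793-155517947 (plus strand, Acss2) and chr11:120824548-120824797 (minus strand, Fasn). Motifs were searched on both strands over the full windows: the core of a sterol regulatory element (CACCCCAC), the E-box CACGTG and its longer form TCACGTGA, which contains it, the NF-Y box (CCAAT) and the Sp1 box (GGGCGG). CACCCCAC is in 2.87% of all 32851 windows and TCACGTGA in 0.97%, and neither is in any of the 7. CACGTG is in 7.15% of all windows and in that of Elovl5. CCAAT is in 37.41% of all windows and in those of Acss2, Elovl1, Elovl5 and Fasn, and GGGCGG is in 35.66% of all and in those of Acss2, Elovl1 and Fads2. The Fasn stretch shows CCAAT 3 times, 2 of them overlapping in a palindrome, the Acss2 stretch shows GGGCGG 3 times as its reverse complement, and the Elovl6 stretch shows none of these letters. The CCAAT of Acss2 lies beyond the stretch printed. A match is a description of letters and not a binding site, and its absence says only that these letters are not in the window.

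Acss2 (ENSMUSG00000027605, plus strand of chromosome 2, 155517948 to 155585724 in GRCm38) encodes the cytosolic and nuclear enzyme that activates acetate to acetyl-CoA. Its level was 6.90, 6.10 and 6.36 CPM in floxed vehicle libraries, 18.8, 19.7 and 22.3 in those of knockout vehicle and 15.9, 18.5 and 15.1 in those with oxybutynin. Every knockout library was more than 2 times any floxed one. The log2 fold change of knockout vehicle against floxed vehicle was 1.65 ± 0.12 (SE; edgeR quasi-likelihood test, adjusted p = 3.12e-09), and 548 of 15720 genes (3.49%) rose more. It was 2.00 ± 0.13 once the GC and length trend was removed. The exons of Acss2 share 927 bases with Gss, Acss2os and Ggt7, which run on the opposite strand, and no source used here says whether counting used strand. Gss was at 18.9 to 19.9 CPM in floxed vehicle libraries and 20.1 to 28.1 in those of knockout vehicle, and its part in the counts of Acss2 was not tested.

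Acaca (ENSMUSG00000020532, plus strand of chromosome 11, 84129672 to 84401651) encodes the cytosolic acetyl-CoA carboxylase, which commits acetyl-CoA to lipid synthesis. It was at 123, 132 and 124 CPM in floxed vehicle libraries, 121, 133 and 105 in those of knockout vehicle and 101, 112 and 107 in those with oxybutynin. The floxed and knockout vehicle groups overlapped, with a log2 fold change of -0.08 ± 0.09 (adjusted p = 0.47, 95% interval -0.26 to 0.11). The same comparison without the GC and length trend gave 0.37 ± 0.06 (adjusted p = 2.78e-05), so that its direction depends on that choice. Of the 50-base stretches of its transcripts, 30.42% also occur in the pseudogenes Gm5182 and Gm42553 or in Cryzl2, so its counts are uncertain where reads match more than 1 place. Gm5182 itself had 6 to 16 counts a library.

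Fasn (ENSMUSG00000025153, minus strand of chromosome 11, 120805846 to 120824547) encodes the multi-domain synthase that makes palmitate. It had 566, 573 and 567 CPM in floxed vehicle libraries, 507, 459 and 590.2 in those of knockout vehicle and 628, 554 and 555 in those with oxybutynin. The floxed values had a coefficient of variation of 0.727%, and the knockout vehicle values, with 12.8%, lay on both sides of them. Knockout vehicle against floxed vehicle gave a log2 fold change of -0.13 ± 0.09 (adjusted p = 0.217, 95% interval -0.32 to 0.06). Without knockout vehicle replicate 3 it was -0.23 ± 0.07 (adjusted p = 0.0183), and with the GC and length trend removed -0.51 ± 0.06 (adjusted p = 9.66e-07). At 58.1% GC, Fasn is the most GC-rich of the 10. The 5 genes of at least 10 CPM whose log2 CPM followed Fasn most closely over the 9 libraries were Hist1h3h, Trim28, Fbxl19, Fbxo17 and Lgals3, with Pearson r of 0.972, 0.969, 0.967, 0.964 and 0.963. These are descriptions over points that share the libraries and their GC trend.

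The 3 elongases moved apart. Elovl6 (ENSMUSG00000041220, plus strand of chromosome 3, 129532355 to 129638495) lengthens palmitate and palmitoleate, the direct products of Fasn and the desaturases. It was at 71.1, 71.7 and 68.0 CPM in floxed vehicle libraries, 12.9, 14.4 and 13.4 in those of knockout vehicle and 10.1, 8.97 and 11.2 in those with oxybutynin. All 6 knockout libraries lay far below all 3 floxed ones, and the oxybutynin libraries below those with vehicle. The log2 fold change of knockout vehicle against floxed vehicle was -2.37 ± 0.10 (edgeR quasi-likelihood test, adjusted p = 8.72e-12), and 205 of 15720 genes (1.3%) fell more. It was -2.00 ± 0.08 with the GC and length trend removed, and ranged from -2.43 to -2.00 over all 19 alternatives. An antisense gene, Gm35986, shares 34 exonic bases with Elovl6.

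Elovl1 (ENSMUSG00000006390, plus strand of chromosome 4, 118428093 to 118432953), which makes very long saturated and monounsaturated chains for sphingolipids, was at 40.6, 42.0 and 38.4 CPM in floxed vehicle libraries, 56.8, 53.8 and 64.1 in those of knockout vehicle and 68.6, 62.3 and 66.04 in those with oxybutynin. No knockout library overlapped a floxed one. Its log2 fold change was 0.53 ± 0.09 (adjusted p = 5.80e-05), and 0.17 ± 0.07 (adjusted p = 0.0329) with the GC and length trend removed. Elovl5 (ENSMUSG00000032349, plus strand of chromosome 9, 77917364 to 77984519), an elongase of polyunsaturated chains, was at 80.3, 80.7 and 77.2 CPM in floxed vehicle libraries, 92.5, 104.8 and 81.8 in those of knockout vehicle and 79.0, 90.4 and 83.9 in those with oxybutynin. Its lowest knockout vehicle library was just above the highest floxed one. A log2 fold change of 0.23 ± 0.09 passed the test (adjusted p = 0.0391), but did not without knockout vehicle replicate 2 (0.14 ± 0.08, adjusted p = 0.12) or without any 1 of the floxed replicates (0.21 to 0.24, adjusted p = 0.0789 to 0.123). It was 0.40 ± 0.06 (adjusted p = 4.37e-05) with the GC and length trend removed.

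**Figure D3:**
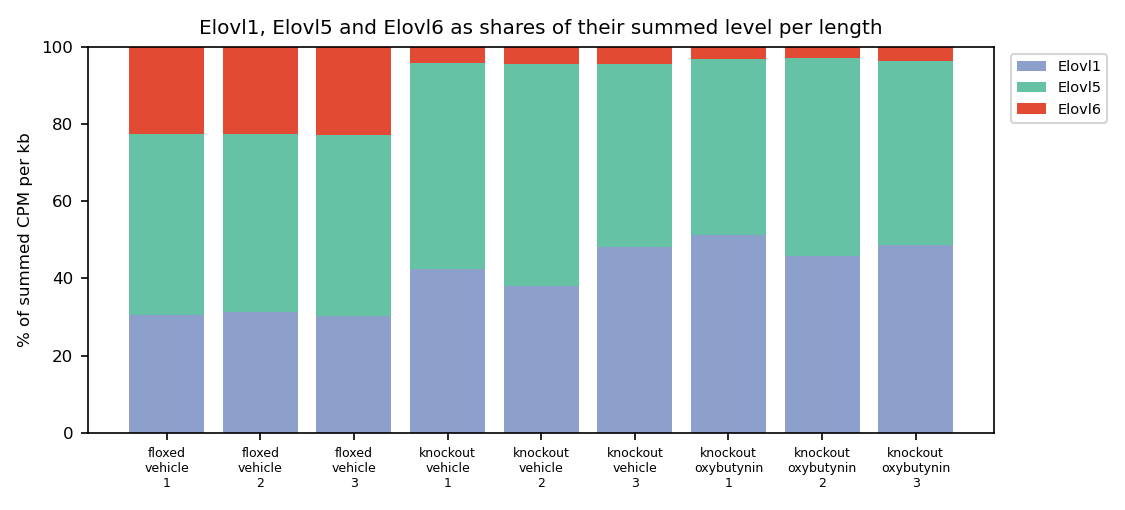
Shares of Elovl1, Elovl5 and Elovl6 in the summed CPM per kilobase of the 3, in percent, for each library. Elovl6 takes 22.5% to 22.7% in floxed vehicle, 4.10% to 4.32% in knockout vehicle and 2.79% to 3.51% in knockout oxybutynin libraries.

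Set against each other per length, Elovl6 made up 22.5% to 22.7% of the 3 elongase messages in floxed vehicle libraries and 4.10% to 4.32% in knockout vehicle libraries. Elovl1 went from 30.3% to 31.2% in floxed vehicle to 38.1% to 48.2% in knockout vehicle libraries. Elovl5 held 46.3% to 47.1% in floxed vehicle and 47.6% to 57.6% in knockout vehicle libraries. In the plot of elongase shares, the Elovl1 share of knockout vehicle replicate 3 (48.2%) resembles the oxybutynin libraries (45.8% to 51.2%) more than the other 2 of its own group (38.1% and 42.5%). Its Elovl5 share (47.6%) also lay within that of the oxybutynin libraries (45.6% to 51.4%). Its Elovl6 share (4.28%) did not: it lay within its own group and above the oxybutynin libraries (2.79% to 3.51%).

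The 2 stearoyl-CoA desaturases lie close together on chromosome 19 and moved in opposite directions. Scd1 (ENSMUSG00000037071, minus strand, 44394455 to 44407879), the form best known from liver and fat, was at 33.97, 32.9 and 34.01 CPM in floxed vehicle libraries, 45.9, 48.8 and 37.2 in those of knockout vehicle and 36.0, 41.7 and 39.6 in those with oxybutynin. All knockout libraries were above all floxed ones, and the log2 fold change was 0.39 ± 0.10 (adjusted p = 0.00347). Scd2 (ENSMUSG00000025203, plus strand, 44293674 to 44306864), the more abundant form in these cells, was at 366, 372 and 364 CPM in floxed vehicle libraries, 307, 292 and 274 in those of knockout vehicle and 252, 283 and 266 in those with oxybutynin. All knockout libraries were below all floxed ones, and the log2 fold change was -0.34 ± 0.08 (adjusted p = 0.00105). Both kept their direction and call with the GC and length trend removed (0.40 ± 0.08 and -0.47 ± 0.06). As a share of the counts of both genes, Scd1 went from 8.39% ± 0.221 in floxed vehicle to 13.1% ± 1.19 in knockout vehicle libraries (SD, n = 3; exact two-sided permutation test p = 0.1, adjusted over 6 such tests 0.15). The smallest p that 3 libraries against 3 can give is 0.1. Of their 50-base stretches, 4.56% (Scd1) and 3.97% (Scd2) are shared with each other or with Scd3 and Scd4, which had at most 6 counts a library.

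Fads1 and Fads2 are neighbours on chromosome 19 that point away from each other. Fads1 (ENSMUSG00000010663, plus strand, 10182888 to 10196877), which places the last double bond of arachidonate, was at 120.05, 118 and 117 CPM in floxed vehicle libraries, 154, 161 and 161 in those of knockout vehicle and 176, 166 and 175 in those with oxybutynin. The 3 groups did not overlap. The log2 fold change of knockout vehicle against floxed vehicle was 0.42 ± 0.07 (adjusted p = 6.13e-05), but 0.12 ± 0.06 (adjusted p = 0.0976) with the GC and length trend removed. Fads2 (ENSMUSG00000024665, minus strand, 10062765 to 10101746), which starts the path from the essential fatty acids, was at 79.1, 77.6 and 77.7 CPM in floxed vehicle libraries, 77.7, 70.9 and 80.5 in those of knockout vehicle and 81.2, 79.7 and 79.2 in those with oxybutynin. The floxed and knockout vehicle groups overlapped, with a log2 fold change of -0.03 ± 0.08 (adjusted p = 0.728, 95% interval -0.20 to 0.13). After removal of the trend it was -0.44 ± 0.06 (adjusted p = 2.76e-06). The GC contents of the 2 neighbours are 52.4% and 54.2%. Fads1 took 60.3% ± 0.203 of the counts of both in floxed vehicle and 67.5% ± 1.63 in knockout vehicle libraries (exact two-sided permutation test p = 0.1, adjusted 0.15, with 0.1 the smallest possible).

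**Figure D4:**
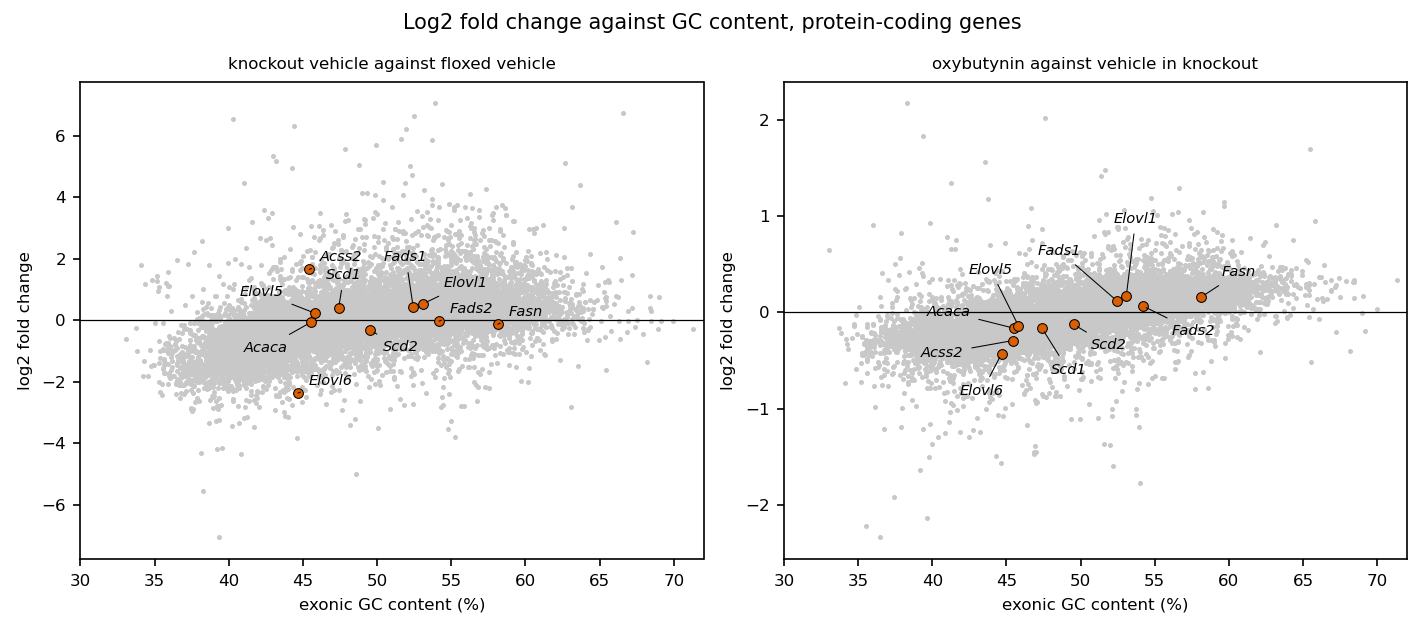
Log2 fold change against exonic GC content in percent for 12976 protein-coding genes (grey) and the 10 genes (orange), in 2 comparisons. Elovl6 and Acss2 have like GC contents (44.7% and 45.4%) and opposite changes with knockout, while with oxybutynin the 6 genes below 50% GC are lower and the 4 above it higher.

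The GC content of the 10 genes ran from 44.7% (Elovl6) to 58.1% (Fasn), around a median of 49.5% for protein-coding genes. Elovl6, Acss2, Acaca and Elovl5 lay within 44.7% to 45.8%, and their log2 fold changes with knockout were -2.37, 1.65, -0.08 and 0.23. At the other end, Elovl1, Fads2 and Fasn (53.1% to 58.1%) had 0.53, -0.03 and -0.13. Removal of the trend moved the first 4 up and the last 3 down, which placed Acaca among the risen genes and Fasn and Fads2 among the fallen ones and ended the call of Fads1. Acss2, Elovl1, Elovl5, Elovl6, Scd1 and Scd2 were called in the same direction on both scales.

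The genes around these enzymes were read from 7 lists with 66 genes, of which 65 matched a gene and 60 were tested. With knockout 32 rose and 16 fell, where 29.9% and 33.4% of all genes did, and their median log2 fold change was 0.25, against -0.01 over all genes. Once the GC and length trend was removed, 27 rose and 14 fell, where 28.0% and 30.3% of all genes did. The counts of the single lists stand against the same shares. As fitted, the largest rise among those named here was on the malonyl-CoA side. Of 6 tested partners of acetyl-CoA carboxylase, 4 rose and 1 fell, with a median of 1.10, and 4 rose and 0 fell with the trend removed. Acacb, the carboxylase at the mitochondrial surface whose malonyl-CoA restrains fatty acid import, was at 3.93, 4.17 and 4.85 CPM in floxed vehicle libraries, 25.7, 25.8 and 28.3 in those of knockout vehicle and 24.0, 29.0 and 25.1 in those with oxybutynin. Its log2 fold change was 2.62 ± 0.12 (edgeR quasi-likelihood test, adjusted p = 2.19e-11). With the trend removed it was 2.24 ± 0.11, below Acss3 (2.87) and Hacd4 (2.51). Per length Acacb thereby went from 5.31% to 6.48% of both carboxylases in floxed vehicle to 25.5% to 32.3% in knockout vehicle libraries. Mlycd, malonyl-CoA decarboxylase, rose by 1.43 ± 0.15 and Mid1ip1, which promotes carboxylase assembly, by 0.77 ± 0.11 on the log2 scale, which became 0.90 ± 0.10 and 0.33 ± 0.08 with the trend removed. Prkaa1, a catalytic subunit of the kinase AMPK that inhibits the carboxylases, fell by 1.00 ± 0.09, but was at -0.08 ± 0.07 (adjusted p = 0.341) with the GC and length trend removed.

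Among 8 tested genes that supply acetyl-CoA and NADPH, 4 rose and 1 fell (3 and 3 with the GC and length trend removed). Slc25a1, the citrate exporter of mitochondria, had a log2 fold change of 1.31 ± 0.10, Acss3, a mitochondrial acyl-CoA synthetase at 0.718 CPM in floxed cells, of 1.80 ± 0.33, and Pgd, of the pentose phosphate path, of 0.37 ± 0.08. G6pdx, the first enzyme of that path, fell by 0.74 ± 0.08. Acly, ATP citrate lyase, was at -0.12 ± 0.07 (adjusted p = 0.156), and was called lower at -0.39 ± 0.06 with the trend removed. Removing it put Slc25a1 at 0.84 ± 0.07 and Acss3 at 2.87 ± 0.28. The call of Pgd was lost with the GC and length trend removed (0.16 ± 0.07, adjusted p = 0.05).

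In mitochondrial fatty acid synthesis, a separate bacterial-type path that makes the precursor of lipoate, 4 of 8 tested genes rose and 2 fell. Lias, lipoate synthase, had a log2 fold change of 0.48 ± 0.10, Mcat of 0.63 ± 0.12 and Acsf3 of 0.54 ± 0.13, whereas Cbr4 (-0.54 ± 0.15) and Oxsm (-0.35 ± 0.13) fell. With the GC and length trend removed, 2 rose and 0 fell: only the call of Lias held among these 5 (0.74 ± 0.09), and Cbr4 was on the other side of 0 (0.12 ± 0.14).

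Of 10 tested genes of other elongases and of the later steps of the elongation cycle, 3 rose and 3 fell (6 and 3 with the GC and length trend removed). Those that rose were Hacd4 (1.72 ± 0.28), Elovl3 (1.59 ± 0.36) and Tecr, the last reductase of the cycle (0.32 ± 0.09); Hacd4 and Elovl3 were under 1 CPM in floxed cells, at 0.850 and 0.493 CPM. Those that fell were Hacd1, a muscle-enriched dehydratase of the cycle (-0.97 ± 0.09), Tecrl (-2.10 ± 0.40) and Hacd2 (-0.42 ± 0.13). With the trend removed Tecr was called lower (-0.16 ± 0.06, edgeR adjusted p = 0.0272). Tecrl was then at -0.89 ± 0.37 (adjusted p = 0.0482), and the call of Hacd2 was lost (-0.14 ± 0.11, adjusted p = 0.259). Of 5 tested genes of other desaturases and their electron donors, 3 rose and 2 fell (2 and 1 with the trend removed): Fads3 (0.70 ± 0.08), Cyb5a (0.64 ± 0.12) and Cyb5r3 (0.23 ± 0.08) rose, and Cyb5r4 (-0.58 ± 0.11) and Cyb5b (-0.29 ± 0.12) fell. Cyb5a encodes cytochrome b5, the electron donor of the desaturases, and Cyb5b encodes another form of cytochrome b5. Fads3 (0.33 ± 0.06) and Cyb5a kept their call and direction with the GC and length trend removed. Cyb5r3 was then called lower (-0.24 ± 0.06, edgeR adjusted p = 0.00222). The calls of Cyb5r4 (0.06 ± 0.08, edgeR adjusted p = 0.559) and Cyb5b (-0.14 ± 0.08, adjusted p = 0.147) were lost.

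Of 11 tested genes that encode the SREBP, LXR and ChREBP factors or their control, 7 rose and 2 fell (5 and 3 with the GC and length trend removed). Srebf1, whose product activates fatty acid synthesis genes, was at 0.29 ± 0.09 (adjusted p = 0.0132), but at -0.18 ± 0.06 (adjusted p = 0.0142) with the GC and length trend removed, and it was not called when knockout vehicle replicate 3 was left out (adjusted p = 0.0518). Srebf2, which acts mainly on cholesterol genes, was at -0.09 ± 0.10 (adjusted p = 0.44), and was called lower at -0.48 ± 0.06 with the trend removed. Insig1, which holds SREBP in the endoplasmic reticulum and is itself an SREBP target, fell by 0.60 ± 0.09, and by 0.58 ± 0.07 with the trend removed. Mlxipl, encoding ChREBP, rose by 2.44 ± 0.40 from 0.262 CPM, and Nr1h3, encoding LXR alpha, by 1.47 ± 0.42 from 0.255 CPM; Nr1h2, encoding LXR beta, rose by 0.58 ± 0.11 from 34.3 CPM. Mbtps1 (0.33 ± 0.07) and Mbtps2 (-0.62 ± 0.10) encode the proteases that release SREBP; Mbtps2 was at 0.44 ± 0.07 with the trend removed, and Nr1h2 at 0.06 ± 0.07 (adjusted p = 0.479).

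Of 12 tested genes that use acyl-CoA for membrane and storage lipids, 7 rose and 5 fell (5 and 4 with the GC and length trend removed). Dgat2, which makes triacylglycerol, rose by 1.45 ± 0.11, Agpat2 by 0.89 ± 0.13 and Lpin1 by 0.84 ± 0.09 on the log2 scale. Among acyl-CoA synthetases Acsl4, which prefers arachidonate, fell by 1.22 ± 0.09, Acsl3 by 1.13 ± 0.10 and Acsl6 by 1.39 ± 0.19, whereas Acsl1 rose by 0.27 ± 0.10 (adjusted p = 0.0192); Acsl1 was chosen after its values were seen. The first 6 kept direction and call with the GC and length trend removed, when Acsl4 was at -0.19 ± 0.06, Acsl3 at -0.58 ± 0.08 and Agpat2 at 0.41 ± 0.10. So did Acsl1 (0.40 ± 0.07).

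**Figure D5:**
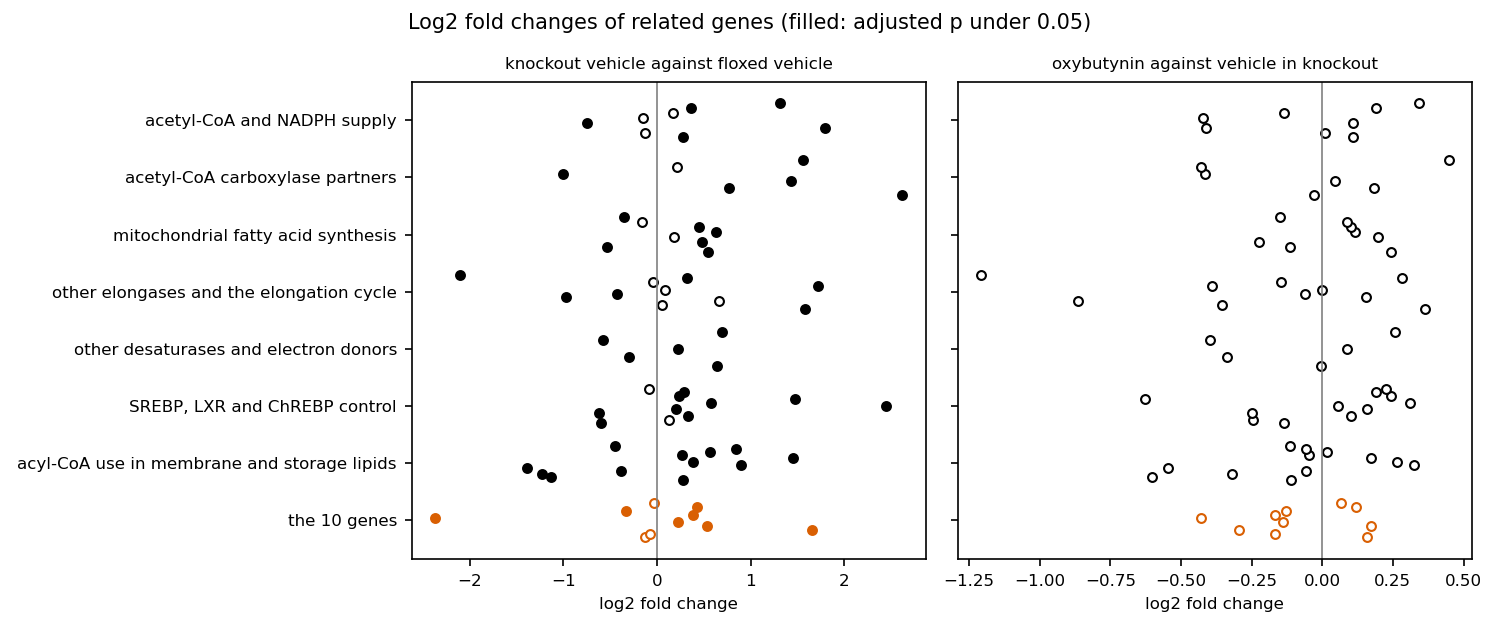
Log2 fold changes of the tested genes of the 7 lists (black) and of the 10 genes (orange) with knockout (left) and with oxybutynin in knockout cells (right); filled points have an adjusted p under 0.05, and the axes differ. With knockout 32 of 60 listed genes rise and 16 fall, and with oxybutynin none of the 60 is called.

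The second comparison, knockout oxybutynin against knockout vehicle, asks whether the drug altered these genes in the knockout cells. None of the 10 genes was called by edgeR's quasi-likelihood test. In all, 0.00636% of genes tested rose and 0.00636% fell, 1 gene each, so the test had few calls to give. At an unadjusted p under 0.05 the 10 genes held 2, Elovl6 and Acss2, both lower, beside 26% of all genes. The groups did not overlap for 3 of the 10 (Elovl6 and Acss2 lower, Fads1 higher), against 22.1% of all genes. DESeq2 called 1 of the 10, Elovl6, which was lower, where it called 6.11% of all genes lower and 1.10% higher. Limma-voom called 0 of the 10, and 0.0127% of all genes higher and 0.00636% lower, 3 genes in all.

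Elovl6 was at 12.9, 14.4 and 13.4 CPM with vehicle and 10.1, 8.97 and 11.2 with oxybutynin, a log2 fold change of -0.43 ± 0.10 (adjusted p = 0.0651). Over the 19 alternatives its adjusted p ran from 0.00959 to 0.232. It was called lower with DESeq2 (adjusted p = 0.00959), without the low-count filter (0.0195), with library totals as the only scaling (0.0493) and without knockout vehicle replicate 3 (0.0117). With the GC and length trend removed it was at -0.26 ± 0.09 (adjusted p = 0.232). Acss2 was at -0.29 ± 0.11 (adjusted p = 0.129), a difference that runs against its rise with knockout, while that of Elovl6 runs along with its fall. These comparisons share the knockout vehicle libraries, so that the values are only set side by side. Fads1 was at 0.12 ± 0.07 (adjusted p = 0.289, 95% interval -0.03 to 0.27).

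The other 7 genes overlapped between the drug and vehicle groups, with log2 fold changes from -0.17 (Scd1) to 0.17 (Elovl1). The 95% intervals of Fasn (-0.03 to 0.35), Acaca (-0.35 to 0.02), Elovl1 (-0.01 to 0.36), Elovl5 (-0.33 to 0.05), Scd1 (-0.38 to 0.05), Scd2 (-0.29 to 0.04) and Fads2 (-0.10 to 0.23) exclude changes of 1.5-fold. Sorted by GC content, the 6 genes from Elovl6 to Scd2 (44.7% to 49.5%) were all lower and the 4 from Fads1 to Fasn (52.4% to 58.1%) all higher with the drug. With the GC and length trend removed all 10 lay between -0.26 and 0.04, and 0% of all genes tested were called higher and 0% lower. That removal was not complete here: across protein-coding genes a Spearman correlation of 0.143 with GC content remained, from 0.701 before. The shares of Scd1 within both stearoyl-CoA desaturases (13.1% ± 1.19 with vehicle, 12.8% ± 0.236 with the drug) and of Fads1 within Fads1 and Fads2 (67.5% ± 1.63 and 68.3% ± 0.643) overlapped (exact two-sided permutation tests, p = 0.7 and 0.5, adjusted 0.7 and 0.6, n = 3 against 3).

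Without knockout vehicle replicate 3 the picture of this comparison changed. Then 2 of the 10 genes were higher, Fasn (0.26 ± 0.07, adjusted p = 0.0231) and Elovl1 (0.25 ± 0.08, adjusted p = 0.0305), where 11.6% of all genes were. The lower ones were 3, Elovl6 (-0.44 ± 0.11), Scd1 (-0.27 ± 0.08) and Acaca (-0.25 ± 0.07), where 14.4% of all genes were. In all 4188 genes were called without that library and 2 with it. That library's Fasn (590.2 CPM), Acaca (105), Elovl1 (64.1), Elovl5 (81.8) and Scd1 (37.2) all lay on the side of the oxybutynin group relative to the other 2 vehicle libraries. So did its Scd2 (274) and Fads2 (80.5). Its Acss2 (22.3) lay on the other side, and its Elovl6 (13.4) and Fads1 (160.84) lay between the other 2 vehicle libraries. Leaving out any other library gave 0 calls among the 10. Of the 60 listed pathway genes, 0 were called by edgeR with all libraries and 22 had an unadjusted p under 0.05, beside 26% of all genes. DESeq2 called 3 of the 60 higher and 7 lower (1.10% and 6.11% of all genes), and limma-voom 0. Without knockout vehicle replicate 3 edgeR called 12 higher and 12 lower (11.6% and 14.4% of all genes). With all libraries the log2 fold changes were 0.34 for Slc25a1, -0.43 for Prkaa1 and -0.60 for Acsl3, none of them called. Their GC contents are 60.58%, 40.15% and 43.10%, and log2 fold changes rose with GC content in this comparison. The part of GC content in these differences was not tested, and these 3 do not stand for the rest of the 60.

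The third comparison, knockout oxybutynin against floxed vehicle, shows where the genes stood in treated knockout cells; it shares its samples with the other 2 and is not independent of them. Acss2 (1.36 ± 0.12), Elovl1 (0.70 ± 0.09) and Fads1 (0.54 ± 0.07) were higher, where 35.1% of all genes were, and Elovl6 (-2.80 ± 0.10), Scd2 (-0.46 ± 0.08) and Acaca (-0.24 ± 0.09) lower, where 36.9% were. The groups did not overlap for 8 of the 10 genes, against 78.9% of all genes. Elovl6 was 6.97-fold lower, and 126 genes (0.802%) fell more. Fasn (0.03 ± 0.09), Elovl5 (0.09 ± 0.09), Scd1 (0.22 ± 0.10, adjusted p = 0.0668) and Fads2 (0.03 ± 0.08) were not called. With the GC and length trend removed 6 of the 10 were higher and 4 lower, where 29.8% and 31.4% of all genes were. Acaca was then higher (0.38 ± 0.06), and Fasn (-0.49 ± 0.06) and Fads2 (-0.53 ± 0.06) lower. The call of Acaca was lost without floxed vehicle replicate 2, knockout vehicle replicate 1, or knockout oxybutynin replicate 1 or 3 (-0.24 to -0.19), and that of Scd1 was gained without knockout vehicle replicate 1, 2 or 3 or knockout oxybutynin replicate 1 (0.23 to 0.28). Scd1 made up 12.8% ± 0.236 of both stearoyl-CoA desaturases against 8.39% ± 0.221 in floxed vehicle, and Fads1 68.3% ± 0.643 of both fatty acid desaturases against 60.3% ± 0.203 (exact two-sided permutation tests, p = 0.1 each, adjusted 0.15, n = 3 against 3).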

How the data were processed

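RNA sequencing libraries were made from total RNA with a directional kit, per the labels' protocols. The deposited values are raw whole-number counts per gene, 1 column for each of 9 libraries and 0 columns without a sample. The submitters' processing notes name STAR 2.7.0e, Trim Galore 0.6.0 with cutadapt, FastQC, DESeq2 1.26.0 and the build GRCm38; the counting step and its strand setting are named in no source used here. Coordinates, exon length and GC content came from GENCODE M21 (GRCm38), which holds all 55536 gene IDs of the table.

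Counts were tested with edgeR 4.0.16 (R 4.3.3): filterByExpr on the 3 groups (15720 genes), TMM scaling, glmQLFit and glmQLFTest on all 9 libraries with 1 mean per group (6 residual degrees of freedom), Benjamini-Hochberg adjustment over all tested genes, and a call at an adjusted p under 0.05. Intervals are 95% intervals of that fit. The GC and length trend was fitted per library to log2 CPM (prior count 2) with natural splines of 5 degrees of freedom and removed by offsets. The other alternatives were DESeq2 1.42.0, limma-voom (limma 3.58.1), RLE scaling, library totals, no filter, a mean of at least 1 CPM, protein-coding genes only, removal of mitochondrial genes, rRNA and Rn7sk, a fit of the 2 groups compared, a 1.5-fold minimum change, an adjusted p under 0.01, and each library left out. Shared sequence was counted as 50-base stretches found in another annotated gene. The scripts were tested on simulated data.

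The 10 genes, the lists and the tests were chosen with earlier results of these data known. The text names the 10 genes, Uqcrfs1, and up to 3 called genes with the lowest adjusted p in each direction of each list. It also names a set of well-known list genes, called or not, the 5 genes most like Fasn, and cell type markers. Other genes are named only as overlapping or similar sequence. Protein sequences were not used here, so a planned comparison of protein motifs was not run.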

Additional observations from a re-analysis of the deposited data

How the results depend on the processing

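Over 19 alternatives for each gene, the knockout calls of Acss2, Elovl1, Elovl6, Scd1 and Scd2 kept their direction and their side of the threshold (log2 fold changes of 1.58 to 2.00, 0.17 to 0.59, -2.43 to -2.00, 0.31 to 0.50 and -0.47 to -0.28). That of Elovl5 was also lost with a mean of at least 1 CPM (adjusted p = 0.0579) and with protein-coding genes only (0.114). For knockout oxybutynin against floxed vehicle, Acaca was also lost without the filter (0.0914), and Scd1 gained without it (0.0291) and with a fit of the 2 groups compared (0.00187). Removal of the GC and length trend turned the direction, with knockout, of Acaca (0.37), Cbr4 (0.12), Tecr (-0.16), Cyb5r3 (-0.24), Cyb5r4 (0.060), Mbtps2 (0.44) and Srebf1 (-0.18), and, for knockout oxybutynin against floxed vehicle, of Fasn (-0.49), Acaca (0.38) and Fads2 (-0.53). Of these, Cbr4 and Cyb5r4 were not called with the trend removed. That removal gave 4 lower genes among the 10 with knockout and 6 higher ones for knockout oxybutynin against floxed vehicle. Asking for at least 1.5-fold left 1 higher and 1 lower with knockout (6463 genes called in place of 9957), and 1 lower for knockout oxybutynin against floxed vehicle. For oxybutynin against vehicle, 1 of the 10 was lower with DESeq2, library totals or no filter; leaving out 1 library gave 0 to 2 higher and 0 to 3 lower. There the genes called were 2, but 1134 with DESeq2, 7 with RLE, 158 with library totals, 1099 without filter, 6 without mitochondrial genes, rRNA and Rn7sk, 1 with protein-coding genes only, 0 with the trend removed, 0 at an adjusted p under 0.01, and 0 to 4188 with 1 library left out; the cause was not tested. Without knockout vehicle replicate 2 the difference in the Scd1 share between drug and vehicle was 0.315 percentage points in place of -0.302, and without 1 library it ranged from -0.867 to 0.315. Counts of 135 to 551 a library limit the precision of Acss2, and those of 228 to 343 in knockout cells that of Elovl6. No paired analysis was possible because the groups share no replicate numbers in the labels.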
